A study of Mus musculus with 5 samples.

Results

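The C/EBP genes and their partners in granulocyte formation were followed through single neutrophils of mice. The set has 10 of the 32285 genes in the count tables. Members were chosen by name and role: Cebpa, Cebpb, Cebpd, Cebpe, Gfi1, Spi1, Irf8, Runx1, Rfx2 and Id2. Each was read as raw UMIs (unique molecular identifiers, one per captured transcript) and as the share of cells holding at least 1 UMI, per library and per hashtag population.

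Neutrophils came from female wild-type C57BL/6J mice and were sorted by flow cytometry from bone marrow, blood and lung. The 3 conditions were naive mice, mice with AT3 tumours (AT3 is a mouse mammary carcinoma line) and mice with AT3-gcsf tumours, which by name carry G-CSF, the growth factor that drives neutrophil production. Neither the ages nor the number of mice per tagged sample is given in the sources used here. Each condition is 1 droplet library, and within it 3 cell samples were tagged with barcoded antibodies and pooled. A cell was assigned to a tag when that tag held at least 80% of its hashtag counts and at least 20 counts.

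No label says which tag marked which tissue, so populations are called by condition and tag and no tissue is assigned. The 3 populations of a library shared a lane and are not replicates of a condition. Condition and lane cannot be told apart, so no p-value is given. Intervals are exact 95% intervals that cover counting error only, on sums over cells.

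After filtering, 7376 naive, 7615 AT3 and 10164 AT3-gcsf cells remained, with a median of 2779, 4795 and 7590.5 UMIs per cell. The 3 files shared between 16 and 20 cell barcodes pairwise, at most 0.263% of kept cells. All 9 neutrophil markers were detected in all 9 populations, and their summed level ran from 118084 CPM (a gene's UMIs scaled to a common total) in naive MHTO5 to 420777 CPM in AT3 MHTO7. Markers of other cell types were uneven: the 6 epithelial markers summed to 10936 CPM in naive MHTO5, 7221 in AT3 MHTO8 and 2274 in AT3-gcsf MHTO5, against 21.3 to 771 CPM in the other populations. The 8 dendritic cell markers summed to 2655 CPM in naive MHTO5, 649 in naive MHTO3 and 399 in AT3 MHTO8, against 10.2 to 182 CPM elsewhere. At 0 UMIs were Epcam in AT3 MHTO7, Krt18 in AT3-gcsf MHTO3, Krt8 in AT3-gcsf MHTO4, Cd209a in all AT3-gcsf populations, Flt3 in AT3-gcsf MHTO3 and MHTO5, and Siglech in naive MHTO3, AT3 MHTO7, AT3 MHTO10 and AT3-gcsf MHTO3. Levels were also taken without marked cells, meaning cells with under 5% of UMIs from the neutrophil list or with at least 5 UMIs of lymphoid, endothelial, stromal or dendritic markers. Primary granule cells, defined below, were not exempt, so marked cells are not only cells of other types. The values without marked cells stand beside the members they move most.

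The populations of a library were told apart only through 15-base antibody barcodes, shown here because every value below rests on them. Any pair of the 6 tags differs by 8 to 14 bases. MHTO3, MHTO4 and MHTO5 were used in both the naive and the AT3-gcsf library, in separate lanes, and the other 3 in the AT3 library. No capitals are marked within them, since the whole barcode is read.
MHTO3: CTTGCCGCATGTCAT
MHTO4: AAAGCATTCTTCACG
MHTO5: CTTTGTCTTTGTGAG
MHTO7: GAGTCTGCCAGTATC
MHTO8: TATAGAACGCCAGGC
MHTO10: CCGATTGTAACAGAC

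CCAAT/enhancer binding proteins (C/EBPs) are leucine zipper factors that bind DNA as dimers. In granulocyte formation C/EBP-alpha acts with PU.1 (Spi1) and Runx1 to commit progenitors. C/EBP-epsilon and Gfi1 then drive the step at which neutrophil precursors stop dividing and fill their secondary granules. C/EBP-beta serves emergency granulopoiesis and inflammatory gene expression, Irf8 favours monocytes and dendritic cells over neutrophils, and Id2 blocks E proteins by forming dimers that cannot bind DNA. Rfx2 is a winged-helix factor of the regulatory factor X family.

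In mm10 with GENCODE vM21, the C/EBP genes lie on 4 chromosomes: Cebpa at chr7:35119293-35121928 and Cebpb at chr2:167688915-167690418 on the forward strand, Cebpd at chr16:15887286-15891031 on the forward strand and Cebpe at chr14:54710360-54712174 on the reverse strand. Spi1 spans chr2:91082390-91115756 and Irf8 chr8:120736358-120756694, both forward. The reverse-strand members are Gfi1 at chr5:107716657-107726036, Runx1 at chr16:92601466-92826149, Rfx2 at chr17:56775897-56831013 and Id2 at chr12:25093799-25097140. Irf8 shares its strand with the overlapping gene Gm20388, so its reads are uncertain between the pair. Cebpa, Cebpb, Cebpd, Gfi1 and Runx1 overlap a gene on the opposite strand. RefSeq promoters were matched for 7 members, and Cebpd, Cebpe and Spi1 had none. The 250 bases upstream of the start are shown for the C/EBP of commitment and for the one that separates 1 population of each library below, at chr7:35119043-35119292 and chr2:167688665-167688914 of GRCm38.p6, both on the forward strand and both free of the motifs searched, so no letters are capitalised.
Cebpa: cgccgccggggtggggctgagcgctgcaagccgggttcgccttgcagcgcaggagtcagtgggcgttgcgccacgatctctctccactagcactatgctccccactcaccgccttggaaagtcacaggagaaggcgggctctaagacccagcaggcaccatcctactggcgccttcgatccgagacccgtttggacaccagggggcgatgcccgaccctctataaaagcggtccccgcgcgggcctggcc
Cebpb: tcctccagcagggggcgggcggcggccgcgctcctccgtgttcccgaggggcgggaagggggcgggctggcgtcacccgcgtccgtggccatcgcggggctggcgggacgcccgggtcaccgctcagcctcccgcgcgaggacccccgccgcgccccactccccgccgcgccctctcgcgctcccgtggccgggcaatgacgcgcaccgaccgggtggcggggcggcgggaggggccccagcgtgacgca

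GC content was 66.4% for the Cebpa window and 81.6% for the Cebpb window. The letters searched on both strands were TTGCNNAA (a C/EBP core, present in 9.56% of 32851 promoters of that length), CCAAT (33.8%), TGACGTCA (the cyclic AMP element, 1.55%) and TTCNNNGAA (the STAT element, 7.02%). TTGCNNAA occurred in 1 matched member, Gfi1, with its first base 143 bases before the start. CCAAT occurred in windows of Irf8, Runx1, Rfx2 and Id2, with 3 matches in Id2. TTCNNNGAA occurred in Irf8, with first bases 171 and 153 bases before the start. These are matches of letters and do not locate bound sites.

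Cebpb, which encodes C/EBP-beta, differed more between hashtag populations of 1 library than between libraries. It stood at 1366, 338 and 8234 CPM in MHTO3, MHTO4 and MHTO5 of the naive library. The AT3 populations MHTO7, MHTO8 and MHTO10 held 608, 7635 and 1361 CPM. In AT3-gcsf MHTO3, MHTO4 and MHTO5 it was at 1437, 1361 and 7084 CPM. One population of each library was therefore far above the other 2, with no overlap of counting intervals. Naive MHTO5 was 24.4-fold above naive MHTO4 (23.6 to 25.1) and 6.03-fold above naive MHTO3. AT3 MHTO8 was 12.6-fold above AT3 MHTO7 (12.3 to 12.8) and 5.61-fold above AT3 MHTO10. AT3-gcsf MHTO5 was 4.93-fold above MHTO3 and 5.21-fold above MHTO4, a smaller gap than in the other libraries. The 6 lower populations ordered from AT3-gcsf MHTO3 down to naive MHTO4. Within that order naive MHTO3 did not differ from AT3 MHTO10 beyond counting error, nor AT3 MHTO10 from AT3-gcsf MHTO4.

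These 3 Cebpb-rich populations were also those with the highest epithelial marker sums in their library. Without marked cells, Cebpb was at 9988, 8083 and 7218 CPM in naive MHTO5, AT3 MHTO8 and AT3-gcsf MHTO5, each above its level with them. Epithelial UMIs played no part in choosing marked cells. Whether Cebpb goes with epithelial transcripts in the remaining cells was not tested. Cebpb was detected in almost every cell of the high populations, 98.6% in naive MHTO5, 99.4% in AT3 MHTO8 and 99.9% in AT3-gcsf MHTO5. The lowest share, 78.6%, was in naive MHTO4. In cells carrying lymphoid or endothelial markers, which should hold little of most neutrophil transcripts, 68.3% to 89.7% also had a Cebpb UMI, so shares of cells with a UMI add little to the levels for this gene.

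**Figure D1:**
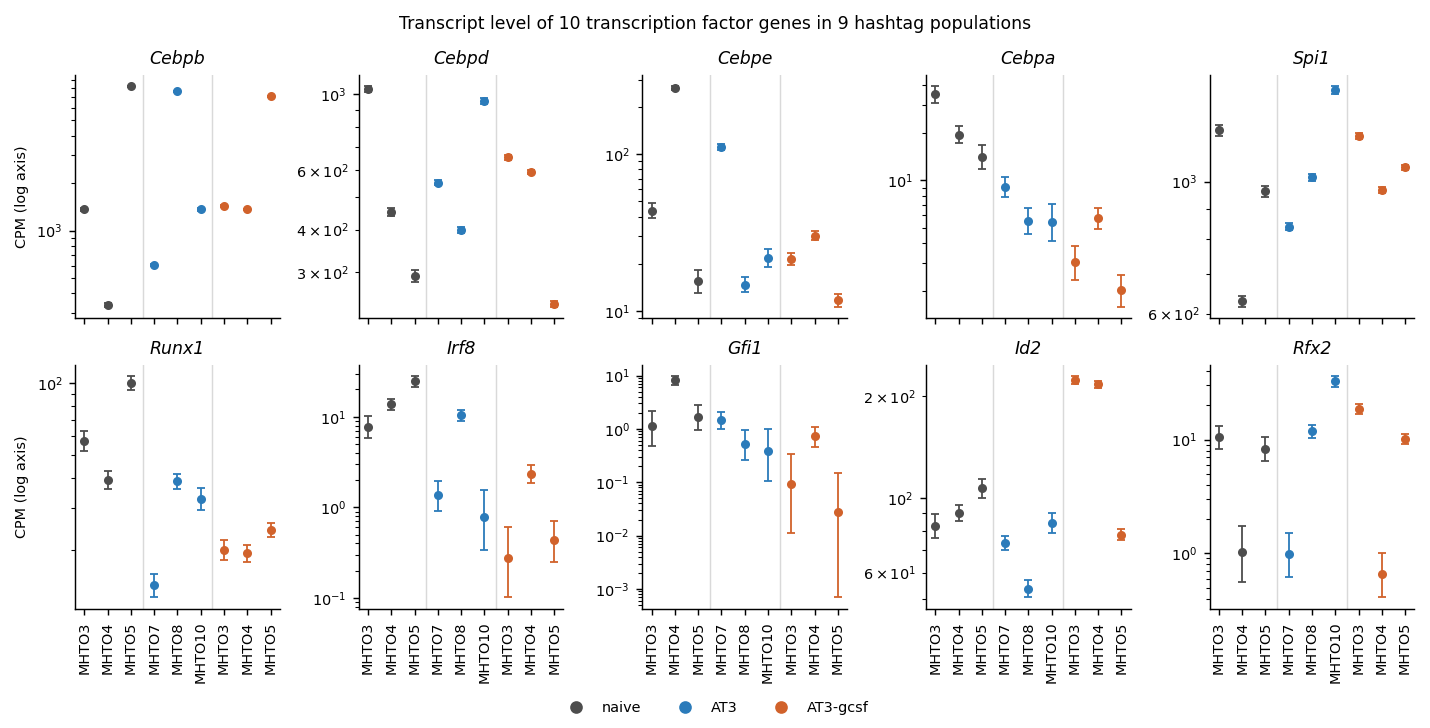
Level of each of the 10 genes (CPM of summed UMIs, log axis) in the 9 hashtag populations, with exact Poisson 95% bars for counting error. Cebpb peaks in naive MHTO5, AT3 MHTO8 and AT3-gcsf MHTO5, Cebpe in naive MHTO4 and AT3 MHTO7, and Id2 in AT3-gcsf MHTO3 and MHTO4.

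Cebpe, the factor of secondary granule filling, had a different pattern. Its level was 43.7, 266 and 15.5 CPM in MHTO3, MHTO4 and MHTO5 of the naive library. The AT3 populations MHTO7, MHTO8 and MHTO10 held 112, 14.7 and 21.9 CPM. AT3-gcsf MHTO3, MHTO4 and MHTO5 held 21.5, 30.2 and 11.7 CPM. Naive MHTO4 and AT3 MHTO7 were thus the high populations, and they were the lowest for Cebpb in their libraries. AT3-gcsf MHTO4 was likewise highest for Cebpe and lowest for Cebpb in its library, by smaller ratios. It was 1.40-fold above MHTO3 for Cebpe (1.26 to 1.57) and 1.06-fold below it for Cebpb (1.04 to 1.07). Naive MHTO4 was 6.08-fold above naive MHTO3 (5.41 to 6.84) and 17.2-fold above naive MHTO5 (14.5 to 20.5). AT3 MHTO7 was 7.57-fold above AT3 MHTO8 (6.72 to 8.56) and 5.10-fold above AT3 MHTO10 (4.44 to 5.88). The largest ratio within AT3-gcsf was 2.59-fold, MHTO4 over MHTO5 (2.31 to 2.91).

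Cebpe was detected in 43.7% of naive MHTO4 cells and 30.5% of AT3 MHTO7 cells. In the other 7 populations the share ran from 4.80% to 12.6%. Median depth differed, from 2267 UMIs per cell in naive MHTO3 to 9738 in AT3 MHTO7. At 1000 UMIs per cell the shares were 15.3% and 6.51% in the 2 high populations and 0.809% to 4.33% in the rest, so the order of the highest pair held. Cells with lymphoid or endothelial markers had a Cebpe UMI in 3.25% of 123 naive cells, 1.59% of 63 AT3 cells and 3.45% of 29 AT3-gcsf cells, at median depths of 5944, 11439 and 14591 UMIs. Median depth was lower in naive MHTO5, AT3 MHTO8 and AT3 MHTO10, at 2809, 4968 and 3269.5 UMIs, so their shares are not directly comparable. Those unthinned shares were 4.88%, 5.05% and 4.80%. Cebpe in the lymphoid or endothelial marker cells was at 4.12 CPM (1.34 to 9.62) in naive and 1.82 CPM (0.22 to 6.58) in AT3. The populations named were above those levels, at 15.5 (13.0 to 18.3), 14.7 (13.1 to 16.5) and 21.9 CPM (19.1 to 24.9).

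Cebpd, an acute-phase C/EBP, was flatter. It stood at 1037, 451 and 292 CPM in MHTO3, MHTO4 and MHTO5 of the naive library. It was at 549, 400 and 955 CPM in AT3 MHTO7, MHTO8 and MHTO10. AT3-gcsf MHTO3, MHTO4 and MHTO5 held 653, 590 and 242 CPM. In each library the lowest population was the Cebpb-rich one. Naive MHTO3 was 3.55-fold above naive MHTO5, and AT3-gcsf MHTO3 was 2.70-fold above AT3-gcsf MHTO5. No 2 neighbours in the order of the 9 populations had overlapping intervals. Without marked cells Cebpd was at 208 CPM in naive MHTO5, and its other levels moved by less.

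Cebpa, the commitment factor, was sparse in every library. Its levels were 34.9 (30.7 to 39.5), 19.4 and 14.1 CPM in MHTO3, MHTO4 and MHTO5 of the naive library. They were 9.06, 5.54 and 5.49 CPM in AT3 MHTO7, MHTO8 and MHTO10. They were 3.03, 5.75 and 2.02 CPM in AT3-gcsf MHTO3, MHTO4 and MHTO5. Over all kept cells every naive population was above every tumour-bearing one, and naive MHTO3 was the highest. Cells with other cell type markers, defined below, held 20.2% of naive, 24.8% of AT3 and 3.10% of AT3-gcsf Cebpa UMIs. Without marked cells that order broke. Naive MHTO3, MHTO4 and MHTO5 then held 32.2, 15.6 and 4.08 CPM, and AT3 MHTO7, MHTO8 and MHTO10 held 8.32, 1.91 and 4.33 CPM. AT3-gcsf MHTO4 was at 5.18 CPM, so by these levels naive MHTO5 was below 3 populations of tumour-bearing mice. Its level rested on 25 UMIs, against 173 in AT3 MHTO7, 42 in AT3 MHTO10 and 159 in AT3-gcsf MHTO4. These levels are given without counting intervals, so the smaller gaps may lie within counting error.

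The make-up of the C/EBP transcripts separated the populations of a library. UMIs are not divided by gene length and capture can differ between genes, so each share is compared only between populations. Cebpb took 96.2% of the UMIs of the 4 genes in naive MHTO5, 94.8% in AT3 MHTO8 and 96.5% in AT3-gcsf MHTO5. It took 31.5% to 68.5% in the other 6. Cebpe took 24.7% in naive MHTO4 and 8.73% in AT3 MHTO7, against at most 1.76% in the remaining 7. Cebpd ranged from 29.7% to 43.0% outside the Cebpb-rich populations and from 3.30% to 4.96% within them. Cebpa stayed between 0.03% and 1.81%.

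**Figure D2:**
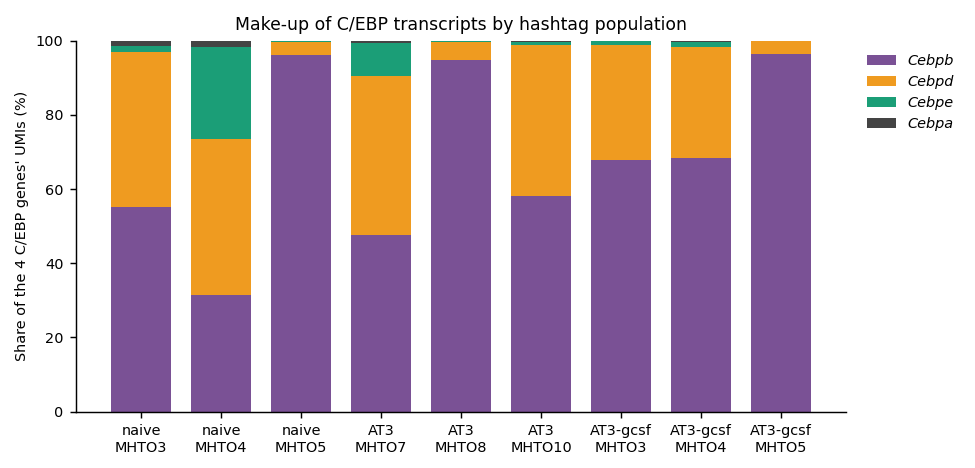
Share of the summed UMIs of Cebpa, Cebpb, Cebpd and Cebpe taken by each gene (percent, stacked bars) in the 9 hashtag populations. Cebpb takes 94.8% to 96.5% in 1 population of each library, and Cebpe takes its largest shares in naive MHTO4 and AT3 MHTO7.

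Spi1, which encodes the myeloid master factor PU.1, varied least. It was at 1218, 629 and 964 CPM in MHTO3, MHTO4 and MHTO5 of the naive library. It was at 840, 1018 and 1426 CPM in AT3 MHTO7, MHTO8 and MHTO10. AT3-gcsf MHTO3, MHTO4 and MHTO5 held 1193, 967 and 1057 CPM. The largest ratio within a library was 1.94-fold, naive MHTO3 over MHTO4, so no pair reached 2-fold. In each library the lowest Spi1 population was the one highest in Cebpe.

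Runx1, the DNA-binding partner of core binding factor beta, was at 57.2, 39.2 and 99.9 CPM in MHTO3, MHTO4 and MHTO5 of the naive library. It was at 14.3, 38.8 and 32.8 CPM in AT3 MHTO7, MHTO8 and MHTO10. In AT3-gcsf MHTO3, MHTO4 and MHTO5 it was at 19.99, 19.4 and 24.2 CPM. Within the naive and AT3 libraries it was lowest where Cebpe was highest. AT3-gcsf MHTO4, highest in Cebpe in its library, also had the lowest Runx1, but did not differ from MHTO3 beyond counting error. Naive MHTO5 was 2.55-fold above MHTO4 (2.28 to 2.84), and AT3 MHTO8 was 2.72-fold above MHTO7 (2.38 to 3.11). All AT3-gcsf populations lay below all naive ones. Naive MHTO4 and AT3 MHTO8 had overlapping intervals. Without marked cells naive MHTO5 was at 82.3 CPM and AT3 MHTO8 at 29.6 CPM.

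Irf8, the monocyte and dendritic cell factor, gave 458 UMIs in naive, 252 in AT3 and 97 in AT3-gcsf cells. It was at 7.79, 13.7 and 24.6 CPM in MHTO3, MHTO4 and MHTO5 of the naive library. The AT3 populations MHTO7, MHTO8 and MHTO10 held 1.37, 10.4 and 0.785 CPM. AT3-gcsf MHTO3, MHTO4 and MHTO5 held 0.276, 2.36 and 0.437 CPM. Most of these UMIs lay outside cells with neutrophil markers. The few cells with other cell type markers (233, 117 and 58 cells) held 84.9%, 61.9% and 82.5% of them. Primary granule cells, also defined below, held 49 naive, 19 AT3 and 11 AT3-gcsf Irf8 UMIs, in 3, 2 and 1 cells. Their Irf8 level was 173, 61.6 and 30.5 CPM. A further 71 AT3 UMIs were in granule-poor neutrophil-marker cells, and 1 AT3 cell held 62 UMIs. Without marked cells no population was above 1.09 CPM.

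Gfi1, a zinc finger repressor that restrains the monocyte programme, was close to the limit of detection, with 133, 46 and 26 UMIs per library. Its level was 1.11, 8.08 and 1.71 CPM in MHTO3, MHTO4 and MHTO5 of the naive library. It was at 1.46, 0.53 and 0.392 CPM in AT3 MHTO7, MHTO8 and MHTO10. AT3-gcsf MHTO3, MHTO4 and MHTO5 held 0.0919, 0.723 and 0.0273 CPM. The highest population was naive MHTO4, which was also highest for Cebpe. All but 1 of the neighbours in the order of the 9 populations had overlapping intervals, so adjacent populations cannot be ordered below naive MHTO4. Populations further apart could be: AT3 MHTO7 was 2.76-fold above AT3 MHTO8 (1.35 to 6.09). Without marked cells AT3-gcsf MHTO4 was left with 2 of its 23 Gfi1 UMIs. The 8 primary granule cells of AT3-gcsf, defined below, were all in MHTO4 and held 21 of the 26 Gfi1 UMIs of that library. Primary granule cells were thus among the marked cells left out there, and the loss of UMIs is mostly theirs.

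Id2, the inhibitor of E proteins, was highest in 2 AT3-gcsf populations. It was at 82.4, 90.3 and 106.8 CPM in MHTO3, MHTO4 and MHTO5 of the naive library. It was at 73.4, 53.8 and 84.3 CPM in AT3 MHTO7, MHTO8 and MHTO10. AT3-gcsf MHTO3, MHTO4 and MHTO5 held 222.8, 216.8 and 77.7 CPM. Without marked cells Id2 was at 62.2 CPM in naive MHTO5 and 41.8 CPM in AT3 MHTO8, against 222 and 212 CPM in AT3-gcsf MHTO3 and MHTO4. The last pair did not differ beyond counting error (1.03-fold, 0.99 to 1.07). They were 2.87-fold (2.74 to 3.01) and 2.79-fold (2.67 to 2.92) above AT3-gcsf MHTO5. At 1000 UMIs per cell, Id2 was seen in 19.9% and 20.5% of cells of the 2 high populations and in 4.44% to 7.53% of the other 7. Unthinned, the shares were 54.5% and 57.5% against 11.8% to 36.2%, and in cells with lymphoid or endothelial markers 37.4%, 49.2% and 41.4%.

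Rfx2 was low and varied strongly within every library. It was at 10.4, 1.03 and 8.30 CPM in MHTO3, MHTO4 and MHTO5 of the naive library, from 75, 14 and 73 UMIs. It was at 0.991, 11.8 and 32.4 CPM in AT3 MHTO7, MHTO8 and MHTO10, from 21, 246 and 330 UMIs. It was at 18.5, 0.660 and 10.1 CPM in AT3-gcsf MHTO3, MHTO4 and MHTO5, from 403, 21 and 371 UMIs. One population of each library therefore stood near 1 CPM, and it was the one highest in Cebpe. AT3 MHTO10 was 32.7-fold above AT3 MHTO7 (21.01 to 53.5) and 2.73-fold above AT3 MHTO8. AT3-gcsf MHTO3 was 28.1-fold (18.1 to 45.8) and MHTO5 15.4-fold (9.90 to 25.1) above AT3-gcsf MHTO4. Naive MHTO3 was 10.1-fold above naive MHTO4 (5.69 to 19.4).

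The Rfx2 contrast was also present among cells with few secondary granule transcripts. In cells with under 0.5% of their UMIs from the secondary granule list, Rfx2 was at 10.0, 1.55 and 6.46 CPM in MHTO3, MHTO4 and MHTO5 of the naive library. Such AT3 MHTO10 cells held 41.2 CPM (35.4 to 47.7) and AT3 MHTO8 cells 13.5 CPM, whereas AT3 MHTO7 had 0 UMIs, with an upper limit of 2.29 CPM. In AT3-gcsf MHTO3 and MHTO4 they held 23.4 (18.4 to 29.3) and 1.03 CPM (0.38 to 2.23).

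A population was called for a member when it was at least 2-fold (with an offset of 5 CPM) above or below both other populations of its library and the gene reached 20 CPM in at least 1 of them. Measured this way were 8 naive, 7 AT3 and 6 AT3-gcsf members. Above both others were Cebpd in naive MHTO3, Cebpe in naive MHTO4 and AT3 MHTO7, Cebpb in naive MHTO5, AT3 MHTO8 and AT3-gcsf MHTO5, and Rfx2 in AT3 MHTO10. Over all measured genes the share above both others was 4.1%, 3.45% and 13.2% in MHTO3, MHTO4 and MHTO5 of the naive library. It was 1.99%, 9.05% and 2.66% in AT3 MHTO7, MHTO8 and MHTO10, and 0.0274%, 0.219% and 5.94% in AT3-gcsf MHTO3, MHTO4 and MHTO5. The Cebpb-rich populations thus had the largest share of such genes in each library, and 1 member each was among them. Below both others were Cebpb in naive MHTO4 and AT3 MHTO7, Cebpe in naive MHTO5, Rfx2 in AT3 MHTO7, and Cebpd and Id2 in AT3-gcsf MHTO5. The share of all genes below both others was 1.68%, 8.7% and 2.3% in MHTO3, MHTO4 and MHTO5 of the naive library. It was 7.2%, 0.456% and 0.36% in AT3 MHTO7, MHTO8 and MHTO10, and 0%, 0.548% and 0.822% in AT3-gcsf MHTO3, MHTO4 and MHTO5, so Cebpd and Id2 were in a population where few genes were low. Id2 in AT3-gcsf MHTO3 and MHTO4 was not called, because each had the other beside it.

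A wider list of 58 genes, mostly transcription factors, put these members among others. Of its genes, 41 were measured in the naive, 36 in the AT3 and 28 in the AT3-gcsf library. Above both others were 10 in naive MHTO5, 8 in AT3 MHTO8 and 8 in AT3-gcsf MHTO5, the 3 Cebpb-rich populations. Over all measured genes the shares there were 13.2%, 9.05% and 5.94%. The list genes above both others in all 3 were Cebpz, Klf4, Ets2, Egr1, Id3 and Trib1, named after their values were seen. Egr1, an immediate early zinc finger factor, was at 336, 362 and 153 CPM in these populations. Trib1, a pseudokinase that targets C/EBP-alpha for breakdown, was at 564, 337 and 212 CPM. In the Cebpe-rich populations 2 list genes were above and 6 below in naive MHTO4, and 0 above and 6 below in AT3 MHTO7. Over all measured genes the shares were 3.45% above and 8.7% below in naive MHTO4, and 1.99% and 7.2% in AT3 MHTO7. The 2 above in naive MHTO4 were Myb, a factor of dividing progenitors, at 25.4 CPM, and Klf5 at 54.6 CPM.

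Cells were then split by marker transcripts, with thresholds chosen after the data were seen. Primary granule cells had at least 10 UMIs of Elane, Mpo, Prtn3, Ctsg and Ms4a3. Cells with under 5% of UMIs from the neutrophil list were set apart, as cells with other cell type markers (at least 5 UMIs of 7 such lists) or simply low in neutrophil markers. The rest were granule-rich, granule-intermediate or granule-poor, with at least 5%, 2% to 5% or under 2% of UMIs from the 8-gene secondary granule list (Ltf, Camp, Ngp, Lcn2, Cd177, Chil3, Ly6g and Anxa1). These are ranges, not cell types. Within 20% of the 5% threshold lay 160 naive, 182 AT3 and 194 AT3-gcsf cells, and within 20% of the 2% threshold 154, 330 and 1020. Granule-rich cells were 788 (10.7%), 635 (8.34%) and 214 (2.11%) of the kept cells.

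Cebpe UMIs were concentrated in granule-rich cells, which held 75.6% of them in the naive library, 75.3% in AT3 and 25% in AT3-gcsf. The Cebpe level in granule-rich cells was 408, 190 and 93.4 CPM in naive, AT3 and AT3-gcsf. It was 134, 43.0 and 27.6 CPM in granule-intermediate cells and 36.4, 9.32 and 12.1 CPM in granule-poor cells. The level therefore went with the granule list in every library, and in the granule-rich range it was lower in both tumour libraries. Comparisons of libraries within a range, here and below, are by total scaling. No TMM value and no share over all genes stand beside them. Granule-rich AT3 cells were 2.14-fold below naive ones (2.03 to 2.27), and AT3-gcsf cells 4.37-fold (3.96 to 4.82). The make-up of that range differed, since Camp was at 33630, 20920 and 7791 CPM in it while Ltf was at 10750, 10103 and 9653 CPM; its part in the Cebpe difference was not tested. The 9, 9 and 8 primary granule cells had Cebpe at 272, 424 and 358 CPM. Granule-rich cells with cycling transcripts were above the others: 812 against 384 CPM in naive (20 and 768 cells), 674 against 159 in AT3 (23 and 612 cells) and 427 against 86.0 in AT3-gcsf (4 and 210 cells).

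Cebpb ran the other way. Its level in granule-rich, intermediate and poor cells was 188, 460 and 4669 CPM in naive. It was 688, 1828 and 4962 CPM in AT3. It was 1369, 2868 and 4122 CPM in AT3-gcsf. In granule-rich cells it was 3.66-fold (3.46 to 3.88) above naive in AT3 and 7.29-fold (6.88 to 7.72) in AT3-gcsf. The difference in make-up was the same as for Cebpe, and for both genes the mix of tags differed too. Of the 788 naive granule-rich cells, 769 were from MHTO4. In AT3, 518 were from MHTO7 and 89 from the Cebpb-rich MHTO8. In AT3-gcsf, 109 were from MHTO4, 60 from MHTO3 and 45 from the Cebpb-rich MHTO5. The part of this mix in the ratios was not tested. In granule-poor cells the 3 libraries lay much closer together.

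Id2 was higher in granule-poor cells of AT3-gcsf than in those of either other library. It was at 65.9, 57.3 and 181 CPM in granule-poor cells of naive, AT3 and AT3-gcsf. AT3-gcsf was 2.74-fold above naive (2.57 to 2.92) and 3.15-fold above AT3 (3.00 to 3.32) there. In granule-rich cells the order was different, at 111, 82.6 and 83.3 CPM. Runx1 was at 36.6, 12.8 and 7.65 CPM in granule-rich and 62.9, 28.4 and 23.6 CPM in granule-poor cells. By total scaling it was lower in both tumour libraries in each of these ranges. Spi1 was at 561, 678 and 834 CPM in granule-rich and 1143, 1223 and 1104 CPM in granule-poor cells. Cebpd was at 380, 372 and 232 CPM in granule-rich and 658, 664 and 515 CPM in granule-poor cells.

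The sparse members lay in few cells. The primary granule cells held 19 of 133 Gfi1 UMIs in naive, 4 of 46 in AT3 and 21 of 26 in AT3-gcsf. Granule-rich cells held 85 and 28 Gfi1 UMIs in naive and AT3 and 0 in AT3-gcsf. Cebpa reached 123, 35.6 and 47.1 CPM in the primary granule cells, above its level in each granule range of its library. Rfx2 lay mostly in granule-poor cells, which held 65.4%, 86.1% and 82.9% of its UMIs in naive, AT3 and AT3-gcsf.

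**Figure D3:**
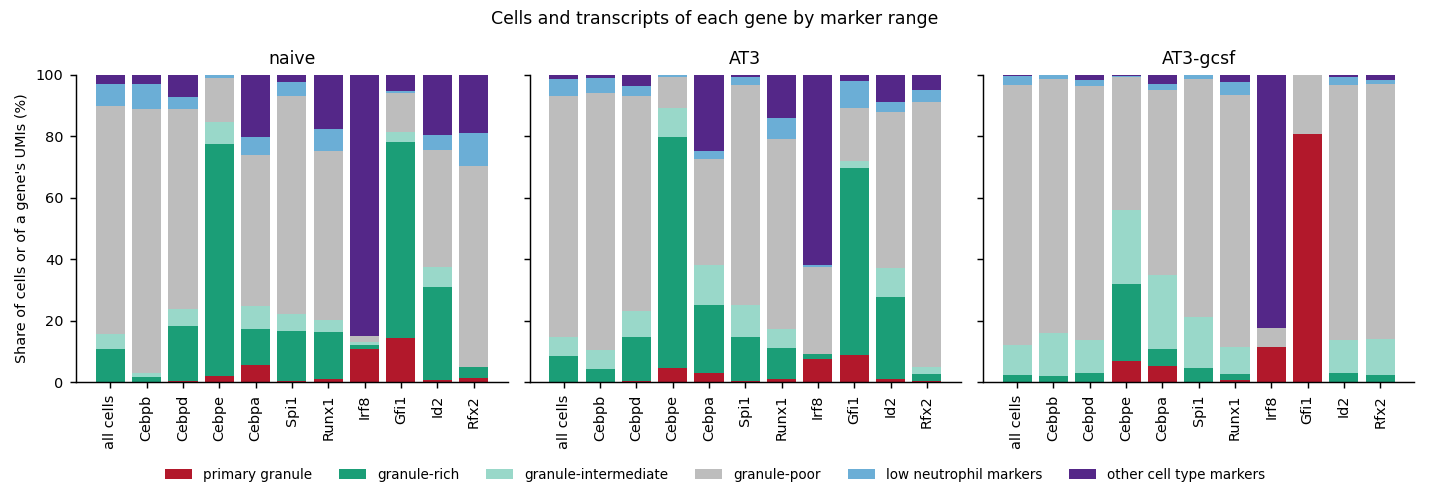
Share of cells and of each gene's UMIs (percent, stacked bars) in the 6 marker ranges, by library. Granule-rich cells are 10.7%, 8.34% and 2.11% of cells but hold 75.6%, 75.3% and 25% of Cebpe UMIs, and cells with other cell type markers hold most Irf8 UMIs.

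Single populations were also read in steps of the secondary granule share. Cebpe was higher in the highest filled step than in the lowest in 9 of 9 populations, and higher in each successive step in 4. Cebpb was lower in the highest step in 8 of 9. This was not particular to Cebpb. Spi1 and Id2 were lower in 9, Cebpd and Rfx2 in 8, Runx1 in 7, Gfi1 in 6, Cebpa in 5 and Irf8 in 4. Spi1 was lower in each successive step in all 9. The exception for Cebpb was naive MHTO3, where Cebpb went from 1361 to 1475 and 1644 CPM. That population and naive MHTO5 had no filled step above 2%, and Cebpe in them was not ordered (40.1, 32.8 and 96.2 CPM, and 17.5, 9.77 and 42.5 CPM). In naive MHTO4, Cebpe was at 45.8 CPM in cells with under 0.5% and at 524 CPM in cells with 10% to 20%. Above 20% it was at 177 CPM, in only 25 cells with a median of 2001 UMIs. AT3 MHTO7 went from 8.1 to 303 CPM over the same steps. AT3-gcsf MHTO4 went from 9.7 CPM under 0.5% to 95.7 CPM at 5% to 10%, its highest filled step. At 5% to 10%, naive MHTO4 was at 269 CPM and AT3 MHTO7 at 109 CPM, so the libraries differed at a like summed granule share. Cells with a like sum can differ in its make-up, whose part was not tested.

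Cebpb was lower in each higher step up to 20%, from 936 to 123 CPM in naive MHTO4, from 1263 to 191 CPM in AT3 MHTO7 and, up to 10%, from 1599 to 818 CPM in AT3-gcsf MHTO4. At 5% to 10% it was at 199, 344 and 818 CPM in these populations. In the Cebpb-rich AT3 MHTO8 and AT3-gcsf MHTO5 the lowest step held 10193 and 9788 CPM and the highest filled step 2028 and 3655 CPM. Those highest steps were still above the lowest steps of AT3 MHTO7 and AT3-gcsf MHTO4. With S100a8 and S100a9, abundant neutrophil transcripts, left out of the total, naive MHTO4 went from 1239 to 205 CPM for Cebpb and from 60.7 to 873 CPM for Cebpe. Spi1 went down less, from 981 to 523 CPM in naive MHTO4. Cebpd went from 1012 to 286 CPM in AT3-gcsf MHTO3.

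Id2 was lower in the highest filled step than in the lowest in 9 of 9 populations, and lower in each successive step in 3. Its course between these ends differed. In AT3-gcsf it was highest in cells with under 0.5%, at 316 CPM in MHTO3 and 393 CPM in MHTO4, and lowest at 5% to 10%, at 78.6 and 103 CPM. In naive MHTO4 it was at 59.1 CPM under 0.5% and 116 CPM at 10% to 20%. Its sparsely filled step above 20% was below the lowest step. In AT3 MHTO7 it was at 107 CPM under 0.5%, 31.4 CPM at 1% to 2% and 93.0 CPM at 10% to 20%. The difference between these courses was not tested.

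The libraries as wholes were compared on sums over their 3 populations, with a call at a 2-fold difference on the log2(CPM + 5) scale for genes that reach 20 CPM in the higher sum. In such sums fewer cells of a kind and less RNA per cell cannot be told apart. AT3 and AT3-gcsf share the naive library as their comparator.

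In AT3 against naive, 0 of 7 measured members were higher and 3 lower, against 1.72% higher and 6.47% lower of all genes (8.19% in all). Cebpa was at 21.6 CPM in naive and 6.96 CPM in AT3 (log2 ratio -1.15). Cebpe was at 137 and 55.5 CPM (-1.24), and Runx1 at 61.6 and 27.6 CPM (-1.03). Cebpb (0.28), Cebpd (0.06), Spi1 (0.23) and Id2 (-0.43) were not called. The median log2 ratio was -0.43 over the members and -0.38 over all genes. Scaling by the trimmed mean of M values (TMM) moved all genes by 0.57 and left none of the 3 calls (5.15% higher and 1.14% lower of all genes), with Cebpa at -0.71, Cebpe at -0.67 and Runx1 at -0.49.

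The AT3 calls also rested on single populations. Without naive MHTO4, Cebpe had the opposite sign (0.87), and without AT3 MHTO8 it was at -0.70. Here and below, each such setting left a population out of a single library and kept all those of the other. The shifts therefore follow from the population levels given above. Without naive MHTO3, Cebpa was at -0.90, and without marked cells it was under 20 CPM and not called. For Runx1 the ratio was -0.63 with naive MHTO5 left out, -0.67 with AT3 MHTO7 left out, -0.80 in thinned cells and -0.87 with the 20 most abundant genes out of the total. Cebpb was not called over all populations, yet stood at 2.35 without naive MHTO5 and -1.78 without AT3 MHTO8. Cebpa and Runx1 were lower in all 9 pairs of an AT3 with a naive population, as were 17.8% of all genes, and no member was higher in all pairs (2.2% of all genes). For Runx1 the closest pair, 38.8 against 39.2 CPM, had overlapping intervals. For Cebpa it no longer held in the levels without marked cells, where naive MHTO5 (4.08 CPM, 25 UMIs) was below AT3 MHTO7 and MHTO10. The gap to MHTO10 (4.33 CPM, 42 UMIs) may lie within counting error.

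In AT3-gcsf against naive, 0 of 7 members were higher and 3 lower, against 4.1% higher and 21.3% lower of all genes (25.4% in all). With TMM scaling, which moved all genes by 0.90, the split was 3 higher and 1 lower, against 17.9% higher and 4.33% lower of all genes. Cebpe was at 20.6 CPM in AT3-gcsf against 137 CPM (log2 ratio -2.48, and -1.67 with TMM), the member with the largest difference. Cebpa was at 3.58 CPM (-1.63) and Runx1 at 21.5 CPM (-1.33), and neither was called with TMM, where Runx1 was at -0.55. Id2 was at 162 against 93.3 CPM (0.76), Cebpb at 3701 against 2935 CPM (0.33) and Spi1 at 1058 against 872 CPM (0.28). With TMM these 3 passed 2-fold, at 1.61, 1.22 and 1.16. Cebpd was at 464 against 546 CPM (-0.23, and 0.65 with TMM). The median log2 ratio was -0.23 over the members and -0.44 over all genes.

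Single populations moved these values as well. Cebpe was at -0.37 without naive MHTO4, and Runx1 at -0.93 without naive MHTO5. Cebpa was at -1.38 without naive MHTO3, then under 20 CPM and not called, nor was it without marked cells. Id2 was at 1.19 without AT3-gcsf MHTO5 and 1.27 in thinned cells, past 2-fold in both. Cebpb was at 2.41 without naive MHTO5 and -1.07 without AT3-gcsf MHTO5. Cebpa and Runx1 were again lower in all 9 pairs of populations, beside 33.3% of all genes, and 0 members were higher in all (7.65%). For Cebpa this too did not hold in the levels without marked cells, where naive MHTO5 (4.08 CPM, 25 UMIs) was below AT3-gcsf MHTO4 (5.18 CPM). That gap may lie within counting error.

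In AT3-gcsf against AT3, 1 of 6 members was higher and 1 lower, against 1.88% and 3.41% of all genes (5.29% in all). Id2 was at 162 against 67.7 CPM, 2.39-fold higher (2.30 to 2.48; log2 ratio 1.2, and 1.49 with TMM). Cebpe was at 20.6 against 55.5 CPM (-1.24, and -1.005 with TMM). Cebpb (0.06) was at 3701 against 3553 CPM. The Id2 value was 0.91 without AT3-gcsf MHTO4. Cebpe was at 0.21 without AT3 MHTO7, -0.93 without AT3-gcsf MHTO5, -0.75 in thinned cells and -0.08 without granule-rich cells, a setting chosen after seeing the data. In all 9 pairs of populations 0 measured members were higher and 0 lower, beside 11% and 9.4% of all genes. Cebpb was at 2.11 without AT3 MHTO8 and -1.35 without AT3-gcsf MHTO5.

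**Figure D4:**
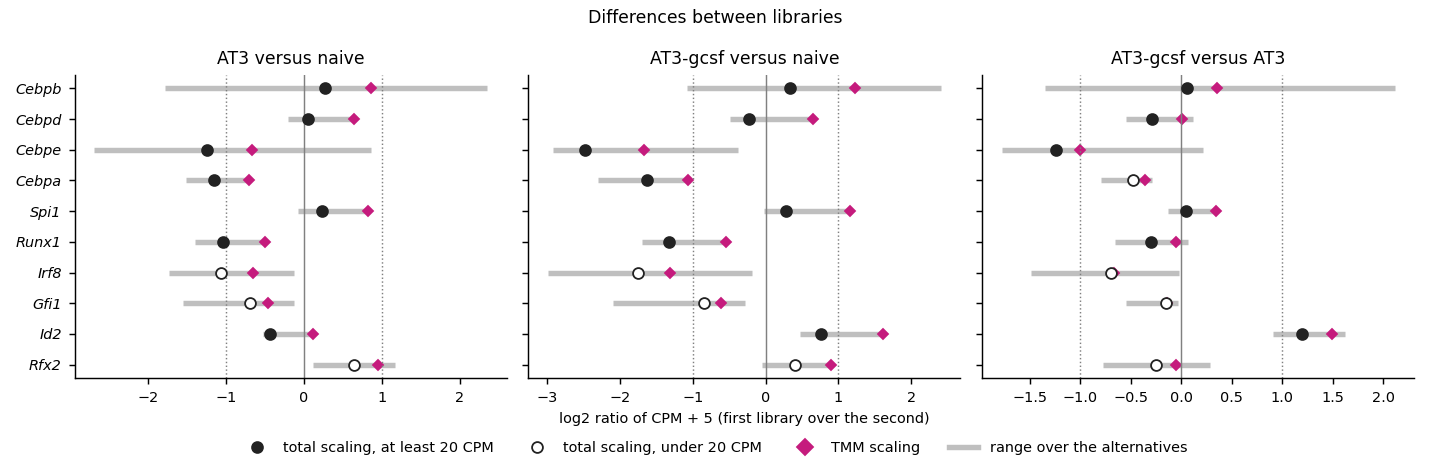
Log2 ratio of each gene between libraries by total scaling (filled points where the gene reaches 20 CPM, open points below), with TMM scaling as diamonds and the range over all alternatives as grey bars. TMM moves the points to the right, towards higher ratios, and the grey bars of Cebpb cross 0 in all 3 comparisons.

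Of the wider list, 0 of 36 measured genes were higher and 1 lower in AT3 against naive, beside 1.72% and 6.47% of all genes. The lower one was Irf5, an interferon regulatory factor, at -1.25. In AT3-gcsf against naive, 1 was higher and 12 lower of 36, beside 4.1% and 21.3% of all genes. With TMM, 4 were higher and 2 lower of 35, beside 17.9% and 4.33%. Id3, an inhibitor of E proteins like Id2, was the higher one, at 53.2 against 19.97 CPM (1.22). Largest among the lower ones were Ets1 (-1.79), Hes1 (-1.78), Irf5 (-1.54), Ets2 (-1.42), Foxo3 (-1.36), Elf4 (-1.34), Runx2 (-1.31), Fli1 (-1.30) and Zeb2 (-1.23). In AT3-gcsf against AT3, 0 of 32 were higher and 2 lower, beside 1.88% and 3.41% of all genes. The lower ones were Egr1 (-1.12) and Ets1 (-1.08). The list medians were -0.41, -0.74 and -0.35, beside -0.38, -0.44 and -0.04 over all genes.

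The genes whose levels followed each member most closely over the 9 populations were ranked among 5285 genes by Pearson's r of log2(CPM + 5). The populations share 3 libraries and differ in depth, so these are descriptions. Cebpb went with Cd14 (0.988), Ier3 (0.987) and Ccl4 (0.974). Cebpe went with Clec12a (0.993), Rbfa (0.992) and Gdpd3 (0.989), and Cebpd with Relt (0.973), Rhox8 (0.972) and Usp53 (0.972). The nearest to Cebpa were Slc6a13 (0.986), Dcaf11 (0.985) and Rfx7 (0.975). Spi1 went with Lyn (0.989), Tlr4 (0.987) and Fam122a (0.972), and Runx1 with Qrich1 (0.990), Huwe1 (0.989) and Atp13a3 (0.987). Irf8 went with Rbbp7 (0.988), Sms (0.978) and Rpl3 (0.978). Rfx2 and Id2 had looser neighbours, Tmco3 (0.963), Amz1 (0.930) and Csnk1g3 (0.928) for Rfx2 and Phax (0.927) and Urod (0.892) for Id2.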

How the data were processed

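Gene counts are the authors' deposited UMI count matrices, for which the submitters' processing notes name bcl2fastq 2.20.0.422, Cell Ranger 4.0.0 and mm10. The deposited hashtag counts come as separate matrices, with counter and collapsing not given in the sources used here. Cells were kept with a top named tag of at least 80% and 20 counts, at least 200 genes and under 10% mitochondrial UMIs. Counts were summed per population or library and divided to CPM with exact 95% Poisson intervals. Shares have Clopper-Pearson intervals. Log2 ratios used an offset of 5 CPM and a minimum of 20 CPM. Thinning took 1000 UMIs per cell, leaving out shallower cells. TMM factors came from edgeR 4.0.16 and doublet calls from Scrublet in scanpy 1.11.5, which marked 0.515%, 2.43% and 0.433% of cells against an expected 8%, so doublets were kept. The ratio script was tested on simulated data. Named genes were the members, list genes past 2-fold (up to 10 per comparison) and the 3 closest genes per member, of which 1 is not reported here. The members and lists were chosen with earlier results of these data known. With 1 library per condition no test was possible, and whether mice were pooled within a tag is not given.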

Additional observations from a re-analysis of the deposited data

How the results depend on the processing

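Across 21 listed settings and 2 chosen after seeing the data (without cells with other cell type markers, and without granule-rich cells), 337 of 600 member ratios moved by less than counting error and 35 changed sign. Of these, 33 were ratios not called by total scaling, such as Cebpb at -1.78 (AT3 against naive without AT3 MHTO8), -1.07 and -1.35 (AT3-gcsf against naive and AT3 without AT3-gcsf MHTO5) and Cebpd at 0.65 (AT3-gcsf against naive, TMM). The 2 called ratios that changed sign were Cebpe at 0.87 in AT3 against naive without naive MHTO4 and at 0.21 in AT3-gcsf against AT3 without AT3 MHTO7. In both, the population highest in Cebpe was left out of a single library, so these 2 changes follow from the population levels. The cause of the other changes was not tested. With TMM, 0 instead of 3 members were called in AT3 against naive, and 4 (3 higher, 1 lower) instead of 3 in AT3-gcsf against naive. Leaving out 1 population gave 2 to 3 calls in AT3 against naive, 2 to 5 in AT3-gcsf against naive (5 without AT3-gcsf MHTO5) and 1 to 3 in AT3-gcsf against AT3, where the main count was 2 and 1 was left in thinned cells, without AT3 MHTO7, without AT3-gcsf MHTO4 and without granule-rich cells. No paired analysis was possible because each condition is 1 library. Depth limits Gfi1 (26 UMIs in AT3-gcsf) and Irf8 (97 UMIs) most.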
